A study of Mus musculus with 8 samples.

Results

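The 38 genes described here are neural progenitor and neuron genes given as a list of names. They were sorted by known role into 12 neural plate and progenitor factors, 4 proneural factors, 8 neural crest or dorsal genes and 14 neuron products. All 38 of 38 had at least 1 probe set with a single gene symbol, 91 probe sets in all, out of 18193 genes measured, and each gene is represented by its brightest probe set. Of these, 28 were above the array median in at least 2 of the 8 arrays and were tested. The other 10 (Lhx5, Olig2, Nkx2-2, Neurog1, Neurog2, Neurod4, Pax7, Zic4, Dcx and Snap25) were too dim to be tested and are given by their values.

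The RNA came from CCE, an embryonic stem (ES) cell line of 129/Sv mice. ES cells were kept undifferentiated with leukemia inhibitory factor on gelatin, and embryoid bodies, the floating aggregates in which ES cells differentiate without added direction, were collected at day 10. A lentivirus brought either the mouse Bmi1 cDNA or no insert into the cells, and cells that expressed eGFP were sorted. By its title, the series is about Bmi1, a protein of Polycomb repressive complex 1, in blood development from ES cells. There were 4 groups of 2 arrays: embryoid bodies labelled Bmi1, embryoid bodies with the empty vector, undifferentiated ES cells labelled Bmi1, and a control group of ES cells made of 1 untreated and 1 empty vector sample. All arrays therefore share 1 cell line, and every group but the untreated array was exposed to virus and sorted. The labels do not say that replicates came from separate cultures, so p-values measure the spread between these samples, which may be technical.

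In the embryo, the neural plate forms from ectoderm that is spared the signals for epidermis and mesoderm, and Sox and Pax6 type transcription factors keep its cells as dividing progenitors. Proneural factors of the basic helix-loop-helix family, such as the Neurogenins, then drive progenitors to leave the cycle and become neurons, which switch on cytoskeletal, RNA-binding and synaptic proteins. At the dorsal edge, Zic, Pax3 and Msx factors mark the cells that give rise to the dorsal neural tube and the neural crest, and Polycomb complexes hold many of these developmental genes silent in ES cells.

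Zic1 had the largest difference of all members between embryoid bodies labelled Bmi1 and vector embryoid bodies, and it lies head to head with Zic4, a member too, so the promoters of both are shown. They come from RefSeq (GRCm38.p6), span the 1 start that the table gives for each, and have the CpG pairs in capitals. The Zic1 promoter is at chr9:91365719-91366018 on the minus strand and holds 31 CpG pairs. The Zic4 promoter is at chr9:91368722-91369021 on the plus strand and holds 8; that start lies inside the span RefSeq gives the whole gene, so the window does not cover the gene's outermost start.
Zic1: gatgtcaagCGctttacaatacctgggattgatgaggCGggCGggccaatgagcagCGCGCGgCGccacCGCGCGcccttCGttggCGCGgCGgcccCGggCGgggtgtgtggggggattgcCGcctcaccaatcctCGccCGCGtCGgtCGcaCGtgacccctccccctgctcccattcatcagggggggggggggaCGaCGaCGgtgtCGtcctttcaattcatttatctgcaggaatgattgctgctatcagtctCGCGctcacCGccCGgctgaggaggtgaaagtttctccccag
Zic4: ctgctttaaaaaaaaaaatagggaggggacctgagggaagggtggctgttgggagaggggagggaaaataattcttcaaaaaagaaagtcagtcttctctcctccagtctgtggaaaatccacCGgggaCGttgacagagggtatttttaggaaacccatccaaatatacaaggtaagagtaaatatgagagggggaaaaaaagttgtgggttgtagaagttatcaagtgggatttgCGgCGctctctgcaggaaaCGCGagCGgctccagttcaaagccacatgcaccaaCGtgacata

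Across the set, 27 of the 38 members matched an entry of the RefSeq promoter table, with 38 promoters. Their median CpG count was 15.5, against 7 over the 32851 promoters of the table. Both strands were searched for 3 short motifs, CAGCTG (an E-box bound by proneural factors), ATTGTT (a Sox core) and TAATTA (a homeodomain core). CAGCTG was in 5 member promoters (13.2%, against 16.3% of all), ATTGTT in 5 (13.2%, against 10.7%) and TAATTA in 7 (18.4%, against 5.29%). Some genes have several windows, which can overlap and hold the same match: the matches came from 4, 5 and 4 genes, and the TAATTA windows of Elavl4 and of Dcx overlap. None of the 3 was in the Zic1 or Zic4 window shown. These matches describe the letters only.

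Values are deposited log2 signals made with RMA, and a difference of 1 is a doubling. The 8 columns fell into 3 sets of nearly equal distribution: the embryoid body arrays of replicate number 1, those of number 2, and the 4 ES cell arrays. Within sets the sorted values differed by 0.00994 to 0.0325 on average (8 pairs), and between sets by 0.189 to 0.442 (20 pairs), so embryoid body differences are also given within each replicate number and with that number as a block. Bmi1 itself went against the labels: its log2 signal was 7.48 and 8.51 in embryoid bodies labelled Bmi1 against 9.35 and 9.67 with the vector, and 5.68 and 6.28 in ES cells labelled Bmi1 against 7.41 and 7.74 in controls. Where on the transcript the Bmi1 probes lie relative to the lentiviral cDNA was not tested, and every direction below is that of arrays labelled Bmi1. Of 8 genes that mark pluripotent cells, all 8 were lower in vector embryoid bodies than in control ES cells and passed the test.

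Between embryoid bodies labelled Bmi1 and vector embryoid bodies, no member passed the test without the block, and 4 members (Zic1, Cbln4, Fabp7 and Nrn1) passed with it, all lower in embryoid bodies labelled Bmi1 by 3.02-fold to 5.17-fold. They belong to 3 of the 4 role groups: a dorsal transcription factor, a radial glia protein and 2 secreted or membrane-bound neuron products. Cbln4, Fabp7 and Nrn1 had 1 probe set each, so no other probe set could be compared for them. In limma's fit without the block, 0 of 28 tested members had a Benjamini-Hochberg adjusted p below 0.05. Over all genes tested, 0.139% were called, 0.131% higher and 0.0077% lower. An unadjusted p below 0.05 was found for 5 members and for 917 of the 12982 genes tested. In the fit with the block these counts were 10 and 2770. With the block, 4 of 28 members were called lower, where 0.739% of all genes tested were, and 0 were called higher, where 1.35% were; in either direction 2.09% of all genes were called. Since these genes were listed with earlier results of the same arrays in view, the shares are given side by side and nothing is read from their contrast. Some of these signals were below the array medians of 5.89 to 5.97, among them replicate 1 labelled Bmi1 for Zic1, Cbln4 and Fabp7, so those folds depend on dim values. In these bulk samples, fewer cells of a type and less RNA per cell cannot be told apart.

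Zic1, a zinc finger factor of the dorsal neural tube and neural crest border, had log2 signals of 4.47 and 7.27 in embryoid bodies labelled Bmi1 (replicates 1 and 2) and 7.81 and 8.66 with the vector. The vector arrays were both above those labelled Bmi1, and replicate 1 labelled Bmi1 stood near the ES cell arrays, at 3.27 to 4.37. The difference was -2.37 (SE 0.80, limma adjusted p = 0.533), and with the block the SE was 0.42 (adjusted p = 0.0476). Within replicate numbers it was -3.34 and -1.40. Its other probe set had signals of 4.32 and 7.31 against 7.17 and 8.28; there the replicate 2 array labelled Bmi1 lay above vector replicate 1, so the groups overlapped, and the difference was -1.90. Without replicate 1 labelled Bmi1 the Zic1 difference was -0.97, and without replicate 2 labelled Bmi1 it was -3.77, so its size depended on single arrays.

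Fabp7, a fatty acid binding protein of radial glia, the progenitors of the developing brain, stood at 5.63 and 6.82 in embryoid bodies labelled Bmi1 and at 7.56 and 8.67 with the vector. The groups did not overlap, and the difference was nearly the same within both numbers, -1.93 and -1.85. On average it was -1.89 (SE 0.47, limma adjusted p = 0.318; with the block SE 0.17, adjusted p = 0.00866). In ES cells, Fabp7 was at 5.04 and 4.57 when labelled Bmi1 and at 4.14 and 4.0 in controls, so the order was the opposite, but all 4 signals were below the array medians of 5.57 to 5.61. The difference between the embryoid body and the ES cell effect was -2.62 (SE 0.67, limma adjusted p = 0.393; with the block SE 0.24, adjusted p = 0.0159).

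Cbln4, a secreted synapse organizer of the cerebellin family, had signals of 5.28 and 5.98 in embryoid bodies labelled Bmi1 and 8.34 and 7.46 with the vector. Both vector arrays were well above both arrays labelled Bmi1. The difference was -2.27 (SE 0.34, limma adjusted p = 0.0921; with the block SE 0.33, adjusted p = 0.032), and -3.06 and -1.48 within numbers. Nrn1, a membrane-anchored protein that promotes neurite growth, was at 6.83 and 6.34 against 8.85 and 7.51, again without overlap. Its difference was -1.59 (SE 0.41, limma adjusted p = 0.328; with the block SE 0.20, adjusted p = 0.0238), and -2.02 and -1.16 within numbers. Without vector replicate 2, Cbln4 (-2.71, limma adjusted p = 0.0147) and Nrn1 (-2.26, adjusted p = 0.0131) passed without a block; without vector replicate 1 they were at -1.83 (adjusted p = 0.105) and -0.92 (0.206). With a block over all 6 numbered arrays, only Cbln4 of the 38 members passed (limma adjusted p = 0.049). Among all 18193 genes ordered by this difference from the lowest, Zic1, Cbln4, Fabp7 and Nrn1 held places 1, 2, 3 and 7. The members were listed with earlier results of these arrays in view, so nothing is read from these places.

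**Figure D1:**
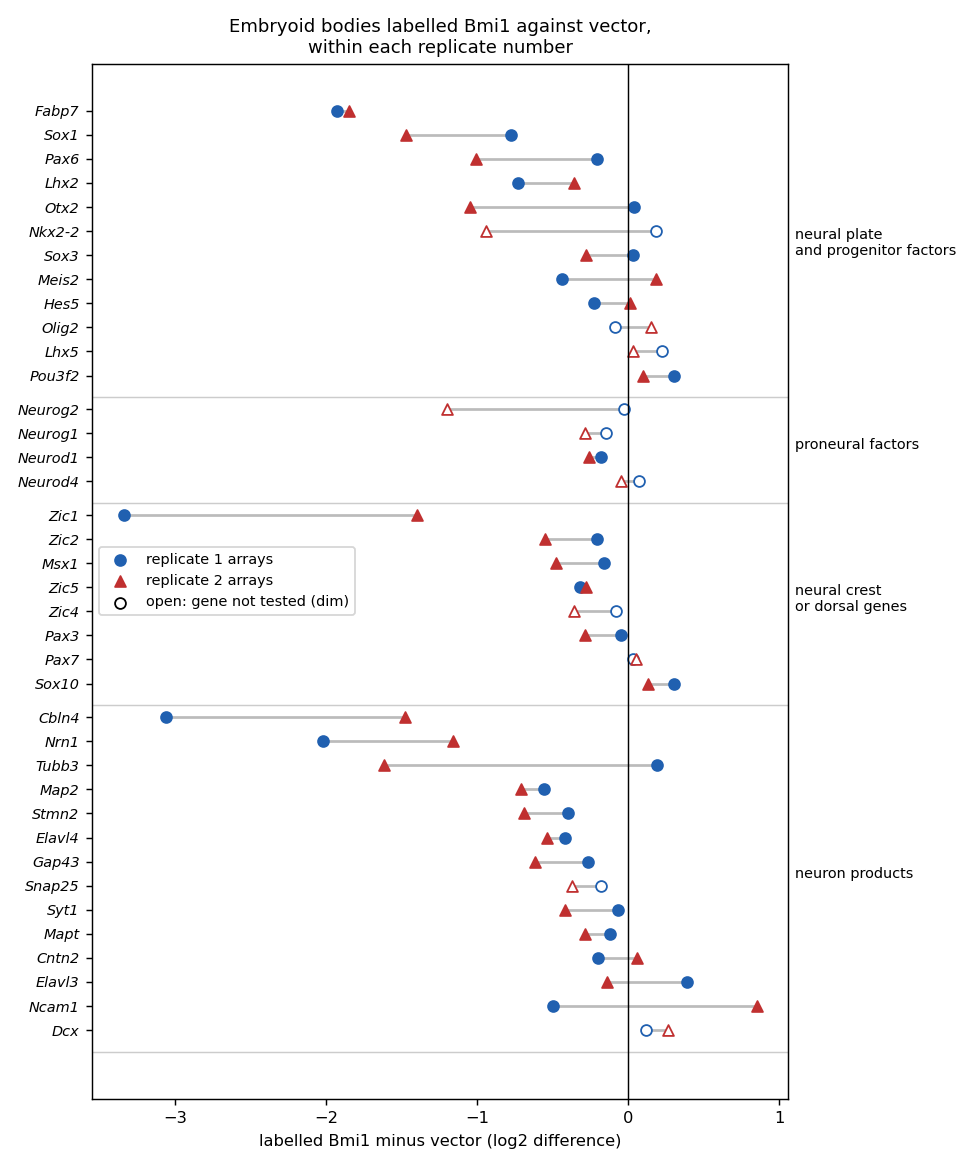
Log2 difference between embryoid bodies labelled Bmi1 and vector embryoid bodies for the 38 genes by role, with the replicate 1 arrays as blue circles and the replicate 2 arrays as red triangles; open symbols are genes too dim to test. Zic1, Cbln4, Fabp7 and Nrn1 lie far to the left in both numbers, from -3.34 to -1.16, while most other members lie nearer 0. Sox1 lies at -0.78 and -1.47. With the replicate 2 arrays, Tubb3 (-1.62), Neurog2 (-1.2), Otx2 (-1.05) and Pax6 (-1.01) also lie to the left.

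Among the other neural plate and progenitor factors, Lhx2, a LIM homeodomain factor of forebrain and eye, was at 5.88 and 6.11 in embryoid bodies labelled Bmi1 and at 6.61 and 6.47 with the vector. Its groups did not overlap, but the difference of -0.55 (SE 0.18) did not pass (limma adjusted p = 0.519, and 0.114 with the block). Pax6, a regulator of forebrain and eye progenitors, was at 5.25 and 5.47 against 5.46 and 6.49, a difference of -0.61 (SE 0.38) with limma adjusted p = 0.856, and its second tested probe set gave 0.19. Sox1, the earliest neural plate marker of its family, was at 3.55 and 5.03 against 4.34 and 6.50. The groups overlapped, and the difference of -1.13 had a limma adjusted p of 0.201 with the block. Otx2 (-0.50), Meis2 (-0.13), Sox3 (-0.13), Hes5 (-0.11) and Pou3f2 (0.20) had smaller differences, and none of the 5 passed in either fit.

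None of the 4 proneural factors had a call. Neurod1, which drives neuronal and endocrine differentiation, was at 4.51 and 4.84 in embryoid bodies labelled Bmi1 and at 4.69 and 5.10 with the vector, which overlapped (-0.22, SE 0.21, limma adjusted p = 0.952). Neurog1, Neurog2 and Neurod4 were not tested. Neurog2 was at 5.24 and 4.88 against 5.28 and 6.08, Neurog1 differed by -0.22, and Neurod4 by 0.01.

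Among the dorsal and crest genes, Msx1, a homeodomain factor of the dorsal midline and crest, was at 7.52 and 7.22 in embryoid bodies labelled Bmi1 and at 7.68 and 7.70 with the vector. The groups did not overlap, yet the difference of -0.32 (SE 0.18) did not pass (limma adjusted p = 0.809, and 0.231 with the block), and its other probe set gave 0.13. Sox10, a factor of crest cells and glia, was at 7.51 and 6.49 against 7.21 and 6.36, a difference of 0.22 (SE 0.39, limma adjusted p = 0.998) that turned to -0.29 without replicate 1 labelled Bmi1 and to -0.21 without vector replicate 2. Zic4, next to Zic1, was at 5.10 and 4.49 against 5.18 and 4.85, a difference of -0.22 in a gene that was above the array median in 0 of 8 arrays. The gene pair Zic2 and Zic5 gave -0.38 and -0.30, Pax3 gave -0.17 and Pax7 0.04.

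The remaining neuron products included the cytoskeletal genes Tubb3 (-0.71), Map2 (-0.64), Stmn2 (-0.54), Mapt (-0.20) and Dcx (0.19), of which Dcx was not tested and none of the other 4 passed. Other probe sets of Dcx, also dim, gave 0.11, -0.58 and -0.65. Elavl4, an RNA-binding protein of young neurons, was at 5.69 and 6.19 in embryoid bodies labelled Bmi1 and 6.11 and 6.73 with the vector. The groups overlapped, and the difference of -0.48 (SE 0.27) had a limma adjusted p of 0.822, or 0.133 with the block. Elavl3 gave 0.13. The growth cone protein Gap43 gave -0.45, the vesicle proteins Snap25 and Syt1 gave -0.28 and -0.24, and the adhesion proteins Cntn2 and Ncam1 gave -0.07 and 0.18.

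As a whole, 29 of the 38 members had a lower mean in embryoid bodies labelled Bmi1 and 9 a higher one, with a median difference of -0.26 against -0.02 over all genes. The medians were -0.26 for plate and progenitor factors, -0.22 for proneural factors, -0.26 for crest or dorsal genes and -0.36 for neuron products. Within the replicate numbers the median was -0.17 and -0.36. There were 22 members lower within both numbers, where 32.9% of all genes were, 5 higher within both, where 26% were, and 11 with opposite signs. The groups did not overlap for 9 members that were lower, where 12.3% of all genes did so, and for 1 that was higher, where 9.36% did. Because the list was made with earlier results of these arrays known, nothing is read from these contrasts with all genes. Of 13 members with several tested probe sets, 5 had all of them on the same side.

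Markers of other cell types differed between these arrays too. The mean log2 signal of 8 endothelial genes was 6.97 and 7.25 in embryoid bodies labelled Bmi1 and 7.95 and 7.99 with the vector, and 8 of 8 were lower. For 7 red cell genes it was 7.03 and 7.18 against 7.96 and 8.16, and 7 of 7 were lower. The mean of 7 trophoblast genes was 7.96 and 7.83 against 7.01 and 7.13 (6 of 7 higher), and that of 8 cardiac muscle genes was 8.90 and 9.21 against 7.07 and 8.71 (6 of 8 higher). For 8 visceral endoderm genes it was 7.94 and 7.70 against 7.84 and 8.70, and for 8 mesenchyme genes 11.01 and 10.85 against 11.32 and 10.34. With the block, 3 endothelial, 2 red cell and 1 visceral endoderm genes were called lower, and 2 cardiac and 2 trophoblast genes higher; without it, 1 cardiac gene was called higher and none of the others. The part of these cell types in the values of the neural genes was not tested.

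Of 75 further neural genes on a second list, 68 had a probe set with 1 symbol and 46 were tested. In embryoid bodies none of the 46 was called without the block. An unadjusted p below 0.05 was found for 8 of them and for 917 of the 12982 genes tested. With the block 0 were called lower and 1 higher, where 0.739% and 1.35% of all genes were. The gene called higher was Erbb3, a neuregulin receptor of the neural crest. Its signals were 8.11 and 8.49 in embryoid bodies labelled Bmi1 and 6.38 and 7.65 with the vector. Both arrays labelled Bmi1 were above both vector arrays, and the difference of 1.29 (SE 0.40) had a limma adjusted p of 0.472, or 0.0497 with the block. It was 1.92 without vector replicate 2 (limma adjusted p = 0.0211) and 0.65 without vector replicate 1 (0.295). The other 3 of the 4 smallest p-values without the block were those of the synaptic fusion protein gene Stx1a (0.63, limma adjusted p = 0.47), the glial glutamate transporter gene Slc1a3 (-0.53, 0.476) and Nsg2 (-0.58, 0.513), a neuronal endosome protein. The median over the 68 genes was -0.10.

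The difference between replicate numbers in embryoid bodies was larger for some members than the difference between the groups. Otx2, a head and forebrain factor, was at 6.15 and 8.33 in replicates 1 and 2 labelled Bmi1 and at 6.10 and 9.38 with the vector. Zic5 was at 5.87 and 8.12 and at 6.19 and 8.41. Sox1, Map2, Stmn2 and Fabp7 were also higher by more than 1 log2 unit on the number 2 array in both groups, which made 6 of 38 members, where 1.76% of all genes were. No member was lower by that much in both groups, where 0.462% of all genes were. Over all 38 members the medians were close to 0, at 0.08 and 0.09, and 15 members were higher on number 2 in both groups, where 38.2% of all genes were, and 11 lower, where 42.3% were. The mean signal of 8 pluripotent cell markers differed with the number, at 8.80 and 9.90 in embryoid bodies labelled Bmi1 and 8.59 and 10.57 with the vector; its part in these values was not tested. In the 4 ES cell arrays Otx2 was at 7.03 to 8.29, Sox1 at 5.44 to 7.41 and Zic5 at 8.13 to 9.44.

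**Figure D2:**
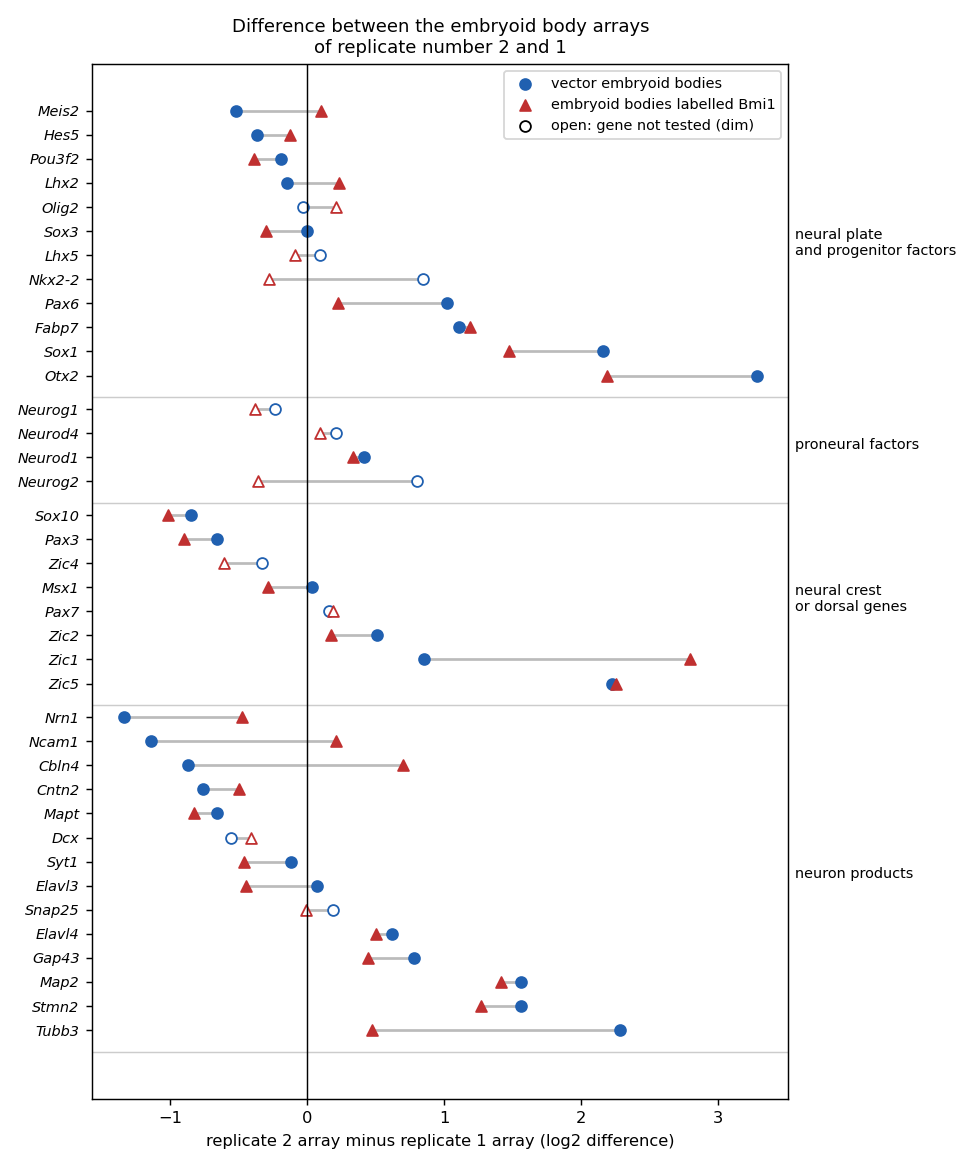
Log2 difference between the replicate 2 and the replicate 1 embryoid body array for the 38 genes, with the vector pair as blue circles and the pair labelled Bmi1 as red triangles; open symbols are genes too dim to test. Otx2, Zic5, Sox1, Map2, Stmn2 and Fabp7 lie above 1 in both pairs.

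In ES cells, no member was called between arrays labelled Bmi1 and controls in limma's fit, without or with the block (0 of 28 in each). Over all genes 0.0462% and 1.66% were called (with the block 1.39% higher and 0.27% lower). An unadjusted p below 0.05 was found for 3 and 8 members, and for 817 and 1749 of the 12982 genes tested. The median over the 38 members was -0.04, against 0.00 over all genes. The groups did not overlap for 9 members that were higher, where 22.6% of all genes did so, and for 10 that were lower, where 19.4% did.

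Ncam1, a neural cell adhesion protein found in other tissues too, was at 6.99 and 7.03 in ES cells labelled Bmi1 and at 8.08 and 8.22 in controls. The groups did not overlap. The difference of -1.14 (SE 0.34, limma adjusted p = 0.458, and 0.127 with the block) passed with array weights (adjusted p = 0.00536) and with ES cell arrays alone (adjusted p = 0.0287). Other tested probe sets of Ncam1 gave -0.82 and -0.14, and for the latter the groups overlapped. Pax6 was at 5.66 and 6.46 against 7.06 and 7.29 (-1.12, SE 0.38, limma adjusted p = 0.587), while its second tested probe set, at 6.64 and 6.91 against 6.65 and 6.49, gave 0.20. Neurod1 was at 8.03 and 8.18 against 7.61 and 7.43 (0.58, SE 0.21, limma adjusted p = 0.648). Pax6, by its brightest probe set, and Neurod1 passed with array weights alone among the settings tried, at adjusted p = 0.0358 and 0.0332. Otx2 (0.89) and Stmn2 (0.84) were higher on both arrays labelled Bmi1 without passing. Mapt was lower on both without passing (-0.83, limma adjusted p = 0.886, and 0.178 with the block). Its other tested probe sets gave -0.8 and -0.79.

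Of the 46 further neural genes tested, 0 were called in ES cells without the block. An unadjusted p below 0.05 was found for 11 of them and for 817 of the 12982 genes tested. With the block 4 were called higher and 1 lower, where 1.39% and 0.27% of all genes were. The block has no term for ES cell arrays, so it changes these p-values only through the spread estimated over all groups. Nefm, a neurofilament subunit, was at 7.12 and 8.18 in ES cells labelled Bmi1 and at 3.97 and 5.27 in controls (3.03, SE 0.58, limma adjusted p = 0.179; with the block 0.0409). Both arrays labelled Bmi1 were above both controls. With the block, Pou3f1 (1.75, limma adjusted p = 0.0403), Prom1 (1.57, 0.0409) and Nsg1 (1.02, 0.0431) were called higher and Mitf (-0.96, 0.0407), a factor of pigment cells, lower. Without it their adjusted p-values were 0.343, 0.453, 0.181 and 0.217. Prom1 was named after its values were seen.

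The effect in embryoid bodies minus the effect in ES cells was called for 0 of 28 members without the block, where 0% of all genes were called. An unadjusted p below 0.05 was found for 5 members and for 887 of the 12982 genes tested. With the block 1 member was called, Fabp7 as given above, where 0.824% of all genes were, 0.354% higher and 0.47% lower. Cbln4, whose ES cell signals of 3.23 to 3.67 were far below the array medians, had a difference of -2.51 (SE 0.48, limma adjusted p = 0.243; with the block SE 0.47, adjusted p = 0.0706), Nrn1 of -1.49 (SE 0.58, adjusted p = 0.668; with the block 0.0753) and Zic1 of -1.70 (SE 1.13, adjusted p = 1; with the block 0.223). Without vector replicate 2, Cbln4 (-2.95, limma adjusted p = 0.0447) and Nrn1 (-2.16, 0.0461) passed without a block.

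**Figure D3:**
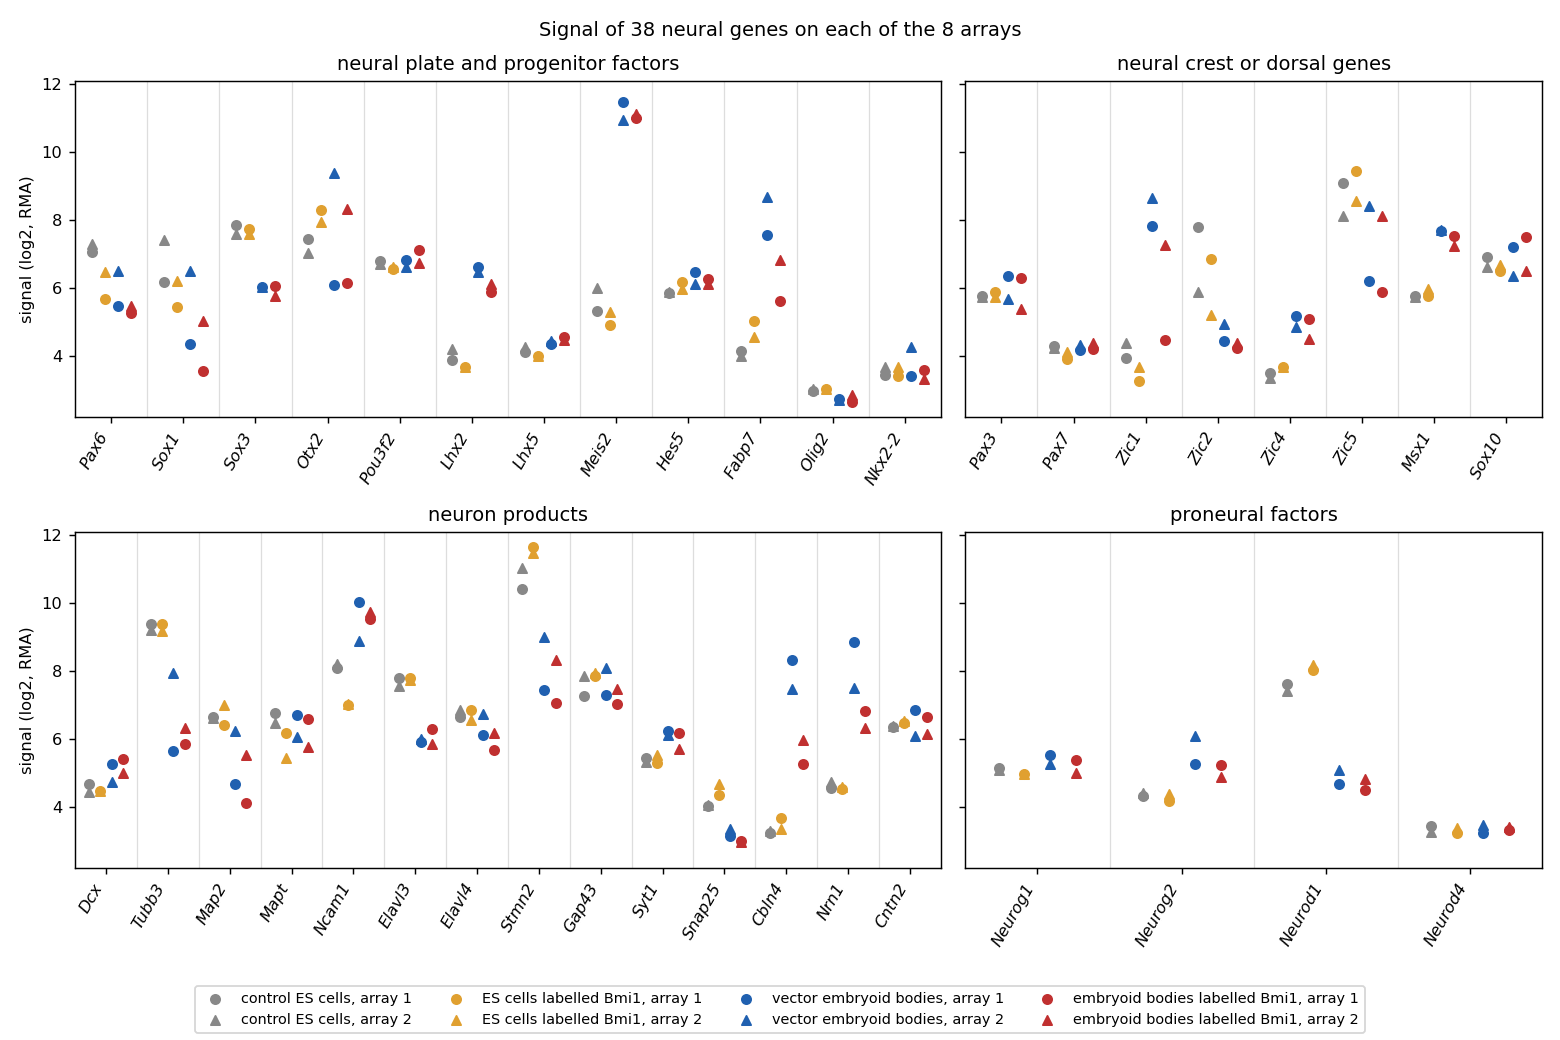
Log2 RMA signal of the 38 genes on each of the 8 arrays, by role; circles are array 1 and triangles array 2 of each group, and for control ES cells array 1 is the untreated and array 2 the empty vector sample. Zic1, Cbln4, Fabp7 and Nrn1 show the vector embryoid bodies (blue) above the other groups, and Meis2 shows both kinds of embryoid body near 11 and all ES cells between 4.92 and 6.0.

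Between the stages, members moved in both directions. In vector embryoid bodies against control ES cells, 9 members were called higher and 7 lower of 28, where 22.7% and 35.8% of all genes were called; called in either direction were 16 of 28 members and 58.5% of all genes, so the members' share is near the background. In arrays labelled Bmi1, 8 were called higher and 7 lower, where 21.2% and 38% of all genes were, 59.2% in either direction. With the block, the members' counts were 10 and 10 in vector and control arrays, where 29.5% and 45.3% of all genes (74.8% in all) were called, and 11 and 11 in arrays labelled Bmi1, where 27.8% and 46.6% (74.4% in all) were. Arrays of the stages did not overlap for 15 higher and 10 lower members in vector and control samples, where 34.6% and 40.4% of all genes did not, and for 16 and 14 in samples labelled Bmi1, where 34.2% and 41.2% did not. The stages also differ by set, and stage and set cannot be told apart. The 2 comparisons use different arrays of each stage. The control ES cell signals of Zic1, Cbln4, Fabp7, Nrn1 and Lhx2 were all below the array medians of 5.61 and 5.60, so the folds below depend on a dim baseline for these 5 genes.

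Meis2, a homeodomain cofactor of hindbrain and limb development, had the largest increase of the members: signals of 11.46 and 10.93 in vector embryoid bodies and 5.31 and 6.0 in control ES cells, a difference of 5.54 (46.5-fold, SE 0.29, limma adjusted p = 3.1e-05). It was 5.95 in arrays labelled Bmi1. Lhx2 rose by 2.50 (5.65-fold, limma adjusted p = 9.5e-05), from 3.89 and 4.19 to 6.61 and 6.47. Fabp7 rose by 4.04 (16.4-fold, SE 0.47, limma adjusted p = 5.4e-04) in vector embryoid bodies and by 1.42 (adjusted p = 0.0352) in those labelled Bmi1. Pax6 fell by 1.20 (limma adjusted p = 0.0301) and Sox3 fell by 1.71 (adjusted p = 4.0e-04) against control ES cells, though a second probe set of Sox3 gave 0.45. Sox1, at 6.18 and 7.41 in control ES cells, did not pass without the block (-1.38, limma adjusted p = 0.177) and was called lower with it (adjusted p = 0.0233). Hes5 (0.42, limma adjusted p = 0.0932) was called higher with the block only (0.0196). Its difference was 0.13 after quantile normalization and 0.1 after median centring. Otx2 (0.51) and Pou3f2 (-0.03) passed in neither fit.

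Among proneural and dorsal genes, Neurod1 fell by 2.63 (SE 0.21, limma adjusted p = 1.4e-04), from 7.61 and 7.43 in control ES cells to 4.69 and 5.10. Its other probe set gave -2.92. Zic1 rose by 4.09 (17-fold, SE 0.80, limma adjusted p = 0.00422) from 3.93 and 4.37. Msx1 rose by 1.95 (3.86-fold, SE 0.18, limma adjusted p = 2.1e-04), from 5.76 and 5.73 to 7.68 and 7.70, while its other probe set gave 0.17. Zic2 fell by 2.14 (limma adjusted p = 0.0327), from 7.79 and 5.87 to 4.43 and 4.94. Zic1 and Zic2 thus went opposite ways between these stages, and Zic5 (-1.32, limma adjusted p = 0.251) was called lower with the block only (0.016). Zic4 (1.59) was not tested, and Pax3 (0.26) and Sox10 (0.03) passed in neither fit.

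Among neuron products, Cbln4 rose by 4.63 (24.8-fold, SE 0.34, limma adjusted p = 1.0e-04) from 3.23 and 3.30, and Nrn1 rose by 3.52 (11.5-fold, SE 0.41, limma adjusted p = 5.2e-04) from 4.57 and 4.75. Ncam1 (1.32) and Syt1 (0.79) also rose, with limma adjusted p-values of 0.0134 and 0.0129. The genes that encode neuronal tubulin and stathmin went the other way. Tubb3 fell by 2.51 (5.70-fold, SE 0.64, limma adjusted p = 0.0123), from 9.39 and 9.22 to 5.66 and 7.94, and the fall was larger on vector replicate 1. Stmn2 fell by 2.49 (5.63-fold, SE 0.58, limma adjusted p = 0.00841), from 10.41 and 11.03 to 7.45 and 9.01. Elavl3 fell by 1.73 (limma adjusted p = 5.3e-04). Map2 (-1.16, limma adjusted p = 0.132) was called lower with the block only (0.00144). By their brightest probe sets, Elavl4, Mapt, Gap43 and Cntn2 passed in neither fit between vector embryoid bodies and control ES cells. The 3 probe sets of Elavl4 ranged from -0.34 to 0.97, and the 3 tested probe sets of Mapt from -2.11 to -0.24.

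In arrays labelled Bmi1, Stmn2 fell by 3.88 (limma adjusted p = 0.00142), Tubb3 by 3.20 (adjusted p = 0.00456), Map2 by 1.87 (adjusted p = 0.0298) and Elavl4 by 0.76 (adjusted p = 0.0455). Without the block, the genes called higher in vector embryoid bodies were called higher there too, except Syt1 (0.52, limma adjusted p = 0.0595, and 0.0116 with the block), with differences of 2.39 for Zic1, 2.12 for Cbln4 and 2.03 for Nrn1. Whether these differ from the vector values is the same test as that of the effect in embryoid bodies minus the effect in ES cells. With the block, Sox1 (limma adjusted p = 0.0151), Zic5 (0.00241), Otx2 (0.0237) and Gap43 (0.0251) were also called lower in arrays labelled Bmi1, and Sox10 (0.0324) and Pou3f2 (0.0344) higher. After median centring, however, Pou3f2 turned from 0.33 to -0.02 and Sox10 went from 0.42 to 0.07. Hes5 was not called in arrays labelled Bmi1 (limma adjusted p = 0.414 with the block). Of the 13 members with several tested probe sets, 11 had all of them on the same side between vector embryoid bodies and control ES cells. Over all genes the median difference was -0.04 as deposited and -0.36 after median centring of the arrays, while the median of the members was 0.11 and -0.21; of all genes called, 38.8% were higher as deposited, 48.7% after quantile normalization and 26.6% after centring. The members called higher and lower were 9 and 7, 8 and 7, and 8 and 7 in these 3 settings, and in arrays labelled Bmi1 they were 8 and 7, 6 and 8, and 6 and 9. Among the 46 further neural genes tested, 14 were called higher and 16 lower between vector embryoid bodies and control ES cells without the block. Over all genes 22.7% and 35.8% were. In arrays labelled Bmi1 the counts were 12 and 16, where 21.2% and 38% of all genes were called.

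**Figure D4:**
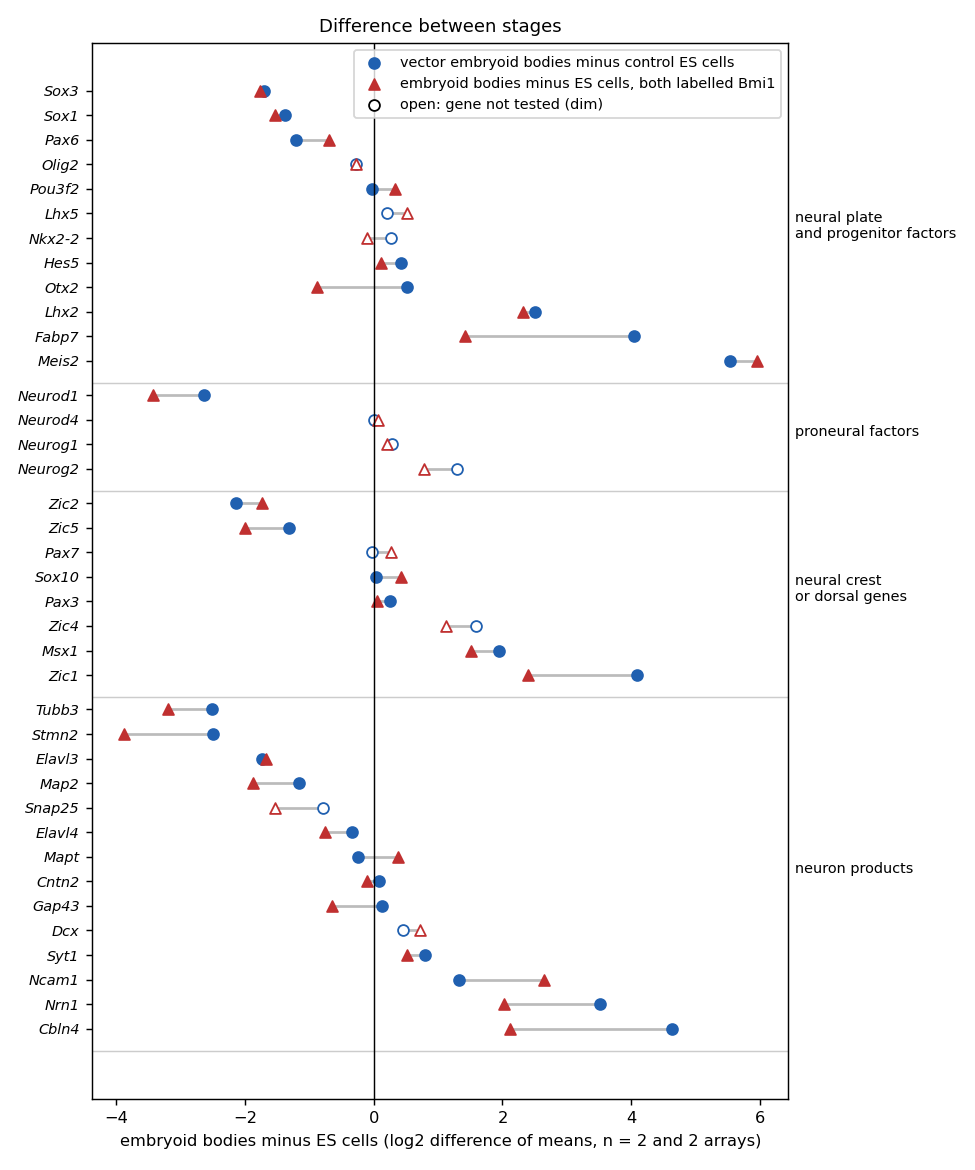
Log2 difference between embryoid bodies and ES cells for the 38 genes by role, with vector embryoid bodies minus control ES cells as blue circles and arrays labelled Bmi1 as red triangles (means of 2 and 2 arrays); open symbols are genes too dim to test. Meis2 lies near 5.5 to 6 in both, Zic1, Cbln4, Fabp7 and Nrn1 lie further right in the vector pair, and Neurod1, Stmn2 and Tubb3 lie to the left.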

How the data were processed

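The authors deposited 1 log2 expression value per probe set and array, for which the submitters' processing notes name RMA; the version and which arrays were processed together are not given in the sources used here. Per the file, 64 array controls were set aside and 45037 probe sets kept. The platform annotation gave 34945 of them 1 symbol, 932 several and 9160 none. A gene was represented by its probe set with the highest mean (18193 genes), and genes above the array median in at least 2 arrays were tested (12982).

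In limma 3.58.1 (R 4.3.3), 1 linear model of 4 group means took in the 8 arrays, and two-sided p-values were adjusted by Benjamini-Hochberg over all genes tested, with a threshold of 0.05. A second fit added the embryoid body replicate number as a block. This block leaves the ES cell arrays as they are and acts on their p-values only through the shared estimate of the spread. Deviations from group means correlated at r = 0.72 between the embryoid body arrays of number 1. With array 1 of the ES cells labelled Bmi1 they correlated at 0.03 and 0.04. The fit was tested on simulated data with the same spread for every gene and no difference between replicate numbers. How well the block works on these arrays was not tested. The number of arrays limits the precision.

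Members, lists and the block were chosen with earlier results of these data known. Named with values in each array were members that passed between arrays labelled Bmi1 and controls. Per role, so were the 3 with the smallest p in embryoid bodies and the 2 with the smallest p between stages. Array values of Sox1, Otx2, Neurog2, Zic2, Zic4, Zic5, Tubb3 and Stmn2 are given outside this rule. Other members are named by their differences. Alternatives covered the filter, probe set choice, scaling, prior, array weights, blocks and each array left out. RefSeq promoters came from a table, and no genome was used here.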

Additional observations from a re-analysis of the deposited data

Results flagged for a closer look

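Fabp7 differed between embryoid bodies and ES cells in its difference between arrays labelled Bmi1 and controls, by -2.62 on the log2 scale, in limma's interaction with the embryoid body block (adjusted p = 0.0159; without the block 0.393); its ES cell signals were below the array medians. Cbln4 was picked out because its differences had opposite signs at the 2 stages without overlap, but in ES cells it stood at 3.23 to 3.67, far below the array medians, so no direction is read there. The difference between stages was -2.51 (limma adjusted p = 0.243 without and 0.0706 with the block, so the difference did not pass). Lhx5 and Snap25 had the same kind of opposite effects, which differed by 0.30 and by -0.75; both genes were too dim to test, so the difference was not tested.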

How the results depend on the processing

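In embryoid bodies labelled Bmi1 against vector, 0 members were called without a block, 4 with the embryoid body replicate block, 1 with a replicate block over the 6 numbered arrays and 0 to 2 when 1 array was left out, the 2 being without vector replicate 2. The median of the members ranged from -0.35 to -0.15 with 1 array left out. In ES cells 0 members were called, 3 with array weights and 1 with arrays of 1 stage only, and the median ranged from -0.05 to 0.04. The difference of the effects had 0 calls, 1 with the embryoid body block and 0 to 2 with 1 array left out, and its median ranged from -0.27 to -0.05. Between vector embryoid bodies and control ES cells, 16 members were called, 6 with a filter at the 75th percentile, which tested fewer genes, and 11 to 20 with 1 array left out. The median of 0.11 was 0.22 with the mean of probe sets, -0.09 after quantile normalization, -0.21 after median centring, and 0.08 to 0.17 with 1 array left out. In arrays labelled Bmi1, 15 were called, 6 at the 75th percentile and 11 to 16 with 1 array left out; the median of 0.09 was -0.17 after quantile normalization, -0.26 after centring, and -0.01 to 0.18. Sox10 in embryoid bodies turned from 0.22 to -0.29 without replicate 1 labelled Bmi1 and to -0.21 without vector replicate 2, and was 0.73 without replicate 2 labelled Bmi1. The causes were not tested. Pairing by number was seen in embryoid bodies, and was not tested between ES cells labelled Bmi1 and controls. With 2 arrays a group, small differences could not be told from the spread.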
